A study of Homo sapiens with 9 samples.

Results

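Expression of 34 genes of sterol and fatty acid metabolism was examined in MOLM13 cells, a human acute myeloid leukemia line, after knockdown of the RNA helicase DDX41. The genes were taken by name: 8 enzymes from acetoacetyl-CoA to the isoprenoids, 11 enzymes from squalene to cholesterol, 5 genes of the sterol-sensing machinery and sterol transport, 7 enzymes of fatty acid synthesis and, for contrast, 3 genes grouped under sterol efflux. In this efflux group, ABCA1 and ABCG1 encode efflux transporters, and MYLIP a ubiquitin ligase that sends lipoprotein receptors to degradation. All 34 had a row among the 30017 of the count table, and 33 passed the filter on low counts that left 12712 genes for testing. Only ABCG1 fell under it. Every tested gene of the list had at least 72 counts in every library, so that none passed through its highest group alone.

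Cells were transduced with a pLKO-GFP lentivirus carrying sh-Control or 1 of 2 hairpins against DDX41, named Sh-DDX41_1 and Sh-DDX41_2, and GFP-positive cells were sorted on day 4 after transduction. Each of the 3 groups had 3 poly(A) RNA-seq libraries, lettered A, B and D. Cells of all groups grew in RPMI with fetal bovine serum, which supplies lipoproteins, so lipid-depleted medium was not part of the design. All libraries came from 1 cell line, and the labels do not say whether the letters stand for separate transductions. The p-values therefore measure only the spread between these libraries, which may be technical.

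Sterol regulatory element-binding proteins (SREBPs) are transcription factors made as membrane proteins of the endoplasmic reticulum. When membrane sterol is low, the escort protein SCAP carries them to the Golgi, where proteases release the part that enters the nucleus and switches on genes for making and taking up lipids. When sterol is plentiful, INSIG proteins hold SCAP back, while oxysterols activate the liver X receptors (LXRs), which switch on efflux genes. The SREBF2 product acts mainly on sterol genes and the SREBF1 product mainly on fatty acid genes.

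SREBPs are known to bind sterol regulatory elements, often next to a CCAAT box bound by NF-Y and a GC box bound by Sp1. The 250 bases before the annotated start were searched on both strands for a sterol regulatory element (TCACNCCAC), a CCAAT box and a GC box (GGGCGG) in the 29 genes of the list found in the RefSeq promoter table (GRCh38.p14). Each motif was counted on its own, whether or not it shared a base with another. For each gene of the list only the first listed promoter was read. The background holds every listed promoter of every gene, not matched for expression or gene type. The shares below are therefore not a test of enrichment. The CCAAT box was present in 18 of 29 promoters (62.1%) against 32% of all 35116 promoters in the table, and the GC box in 26 of 29 (89.7%) against 42.6%. The sterol regulatory element was found in 1 of 29 (3.45%), that of SREBF2, against 0.883% of all promoters. Such matches are letters in a window and not evidence of binding. Sites that differ from these letters or lie farther away were not searched, so a promoter without a match may still hold an element. The promoters of 4 genes whose RNA fell under both hairpins, and that of SREBF2, are printed 5′ to 3′ on the strand of the gene, ending at the base before its start, with the CCAAT box of either strand and the sterol regulatory element in capitals. A box on the other strand reads as ATTGG.
HMGCS1 (chr5:43313413-43313662, minus strand): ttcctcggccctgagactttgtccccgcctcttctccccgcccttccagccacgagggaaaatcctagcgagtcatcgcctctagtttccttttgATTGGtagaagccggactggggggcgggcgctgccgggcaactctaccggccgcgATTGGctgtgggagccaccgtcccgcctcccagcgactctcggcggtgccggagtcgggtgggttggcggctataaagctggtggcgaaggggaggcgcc
STARD4 (chr5:111512536-111512785, minus strand): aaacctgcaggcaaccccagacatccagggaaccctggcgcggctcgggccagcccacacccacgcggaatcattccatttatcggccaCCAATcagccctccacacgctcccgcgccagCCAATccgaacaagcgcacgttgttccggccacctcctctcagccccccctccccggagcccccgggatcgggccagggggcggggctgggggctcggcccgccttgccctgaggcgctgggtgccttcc
INSIG1 (chr7:155297628-155297877, plus strand): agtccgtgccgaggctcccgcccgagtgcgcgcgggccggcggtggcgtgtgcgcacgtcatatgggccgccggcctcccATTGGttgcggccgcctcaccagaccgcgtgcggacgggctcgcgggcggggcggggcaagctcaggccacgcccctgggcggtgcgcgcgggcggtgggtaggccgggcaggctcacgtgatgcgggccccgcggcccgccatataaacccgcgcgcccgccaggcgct
SCD (chr10:100346983-100347232, plus strand): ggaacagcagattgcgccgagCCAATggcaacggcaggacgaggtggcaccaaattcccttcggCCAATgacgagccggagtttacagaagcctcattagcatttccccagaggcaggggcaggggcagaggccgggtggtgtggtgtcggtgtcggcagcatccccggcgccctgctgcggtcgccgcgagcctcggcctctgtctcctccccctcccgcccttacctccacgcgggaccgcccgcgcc
SREBF2 (chr22:41832855-41833104, plus strand): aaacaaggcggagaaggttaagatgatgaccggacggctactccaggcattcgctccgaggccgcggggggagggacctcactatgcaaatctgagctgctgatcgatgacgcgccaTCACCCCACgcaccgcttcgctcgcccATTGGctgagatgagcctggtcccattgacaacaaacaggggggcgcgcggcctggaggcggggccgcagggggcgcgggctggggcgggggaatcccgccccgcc
The HMGCS1, STARD4 and SCD promoters each held 2 CCAAT boxes and that of INSIG1 held 1. In SREBF2 the sterol regulatory element began 133 bases and the CCAAT box 106 bases before the start. The 18 genes with CCAAT had a median log2 fold change of -0.75 under Sh-DDX41_1 and -0.50 under Sh-DDX41_2, and the 11 without it -0.63 and -0.50. Among the genes without CCAAT in this window was FADS2, whose RNA fell by 2.43 on the log2 scale under Sh-DDX41_1.

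Libraries held 16385238 to 20510032 counts. Levels are given as CPM, counts relative to the library total after TMM scaling. DDX41 averaged 114.8 ± 1.76 CPM in sh-Control, 11.7 ± 1.56 under Sh-DDX41_1 and 40.4 ± 1.85 under Sh-DDX41_2 (SD, n = 3), so the groups carried 10.2% and 35.2% of the control level. Markers of the line (8 of 8 tested, CD33, MPO, FLT3 and SPI1 among them) were present in all libraries. Their summed level was 2096 to 2146 CPM in sh-Control, 2140 to 2195 under Sh-DDX41_1 and 3028 to 3067 under Sh-DDX41_2. Most of the higher sum under Sh-DDX41_2 was LYZ, at 931 CPM in sh-Control and 1818 under Sh-DDX41_2. The others stood at 150.4% (MPO), 113.6% (PTPRC), 100.1% (CD68), 97.3% (FLT3), 95.6% (SPI1), 94.0% (CD33) and 83.8% (CSF1R) of control with this hairpin. Under Sh-DDX41_1 the sum hid different moves. CD68, CD33, FLT3 and MPO stood at 133.5%, 118.5%, 115.2% and 111.7% of control. SPI1, LYZ, PTPRC and CSF1R stood at 99.8%, 93.5%, 92.5% and 55.0%. Monocyte maturation markers (7 of 11 tested, CD163 and FCN1 at 0 in every library) summed to 66.3 to 68.0 CPM in sh-Control. Under Sh-DDX41_1 and Sh-DDX41_2 they summed to 72.7 to 78.8 and 109 to 113 CPM. The tested members went different ways under Sh-DDX41_1. MPEG1 stood at 368.8% of control (8.66 to 31.9 CPM) and FCGR1A at 60.9% (30.4 to 18.5). ITGAM, CD36 and S100A9 stood at 84.1%, 89.6% and 74.9%, and S100A8 and VCAN at 107.3% and 118.4%. With Sh-DDX41_2 most were higher: MPEG1, S100A9, CD36, S100A8 and ITGAM stood at 366%, 327.5%, 208.2%, 174.1% and 143.3%. FCGR1A and VCAN stood at 90.7% and 65.4%. S100A8 and VCAN averaged only 0.938 and 0.627 CPM in sh-Control. Markers of other lineages (3 of 10 tested) summed to 148 to 157, 117 to 119 and 197 to 207 CPM in sh-Control, Sh-DDX41_1 and Sh-DDX41_2. This sum was mostly PECAM1, at 135.2, 102.5 and 183 CPM, and MS4A1 and HBB were at 0 throughout. Sh-DDX41_1 D stood farthest from its group, with a chi-square per degree of freedom of 17.6 and 19.2 against A and B, where A and B differed by 2.91. The part of these differences in the results was not tested.

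The sterol and fatty acid genes together held a smaller share of the RNA with either hairpin. The 34 genes held 0.533% ± 0.0424 of all counts in sh-Control, 0.292% ± 0.0189 under Sh-DDX41_1 and 0.350% ± 0.0045 under Sh-DDX41_2 (SD, n = 3). Shares ran from 0.508% to 0.582% in the control libraries and from 0.271% to 0.354% in the 6 knockdown libraries, with no overlap. In bulk RNA, fewer cells that express a gene and less RNA per cell cannot be told apart.

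Under Sh-DDX41_1, 25 of the 33 tested genes were called lower against a background of 24.1% of all tested genes, and 1 higher against 23.7%, by edgeR's quasi-likelihood test at an adjusted p under 0.05. For 26 of 33 genes all Sh-DDX41_1 libraries lay below all sh-Control libraries, against 26.6% of tested genes. Their median log2 fold change was -0.81, with a median of 0.01 over all tested genes, and 10 genes were called at least 2-fold lower. Under Sh-DDX41_2, 25 of 33 genes were called lower against 13.4% of tested genes and 1 higher against 11.6%, 27 of 33 lay below the controls without overlap against 22.7%, and the median was -0.50 with -0.01 over all tested genes. Only 4 genes were called at least 2-fold lower with this hairpin. The share of all tested genes called at least 2-fold lower was not taken, so these 2-fold counts have no background beside them. The 2 comparisons share the control libraries, so their calls are not independent. The list was chosen with earlier results of these data known. The counts beside the shares over all genes are therefore descriptions and not a test of enrichment. Without sh-Control A the count of genes called lower under Sh-DDX41_2 was 21, and TM7SF2, EBP, SC5D and SCAP were the calls lost.

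**Figure D1:**
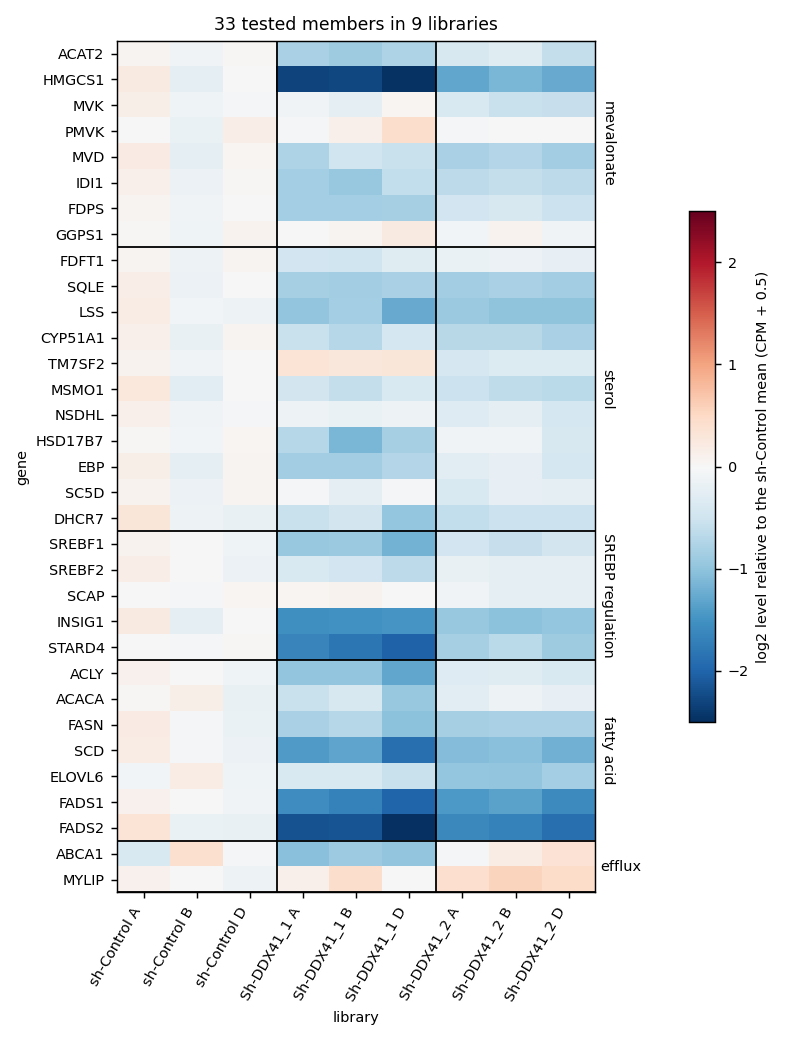
Heat map of the 33 tested genes (rows, by role) in 9 libraries (columns), colored by the log2 ratio to the mean of sh-Control after adding 0.5 CPM, with blue for lower. The median over the 31 synthesis and SREBP genes was -0.78, -0.72 and -0.77 in Sh-DDX41_1 A, B and D and -0.48, -0.56 and -0.57 in Sh-DDX41_2 A, B and D. The 2 tested genes of the efflux group, ABCA1 and MYLIP, are the lowest rows.

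**Figure D2:**
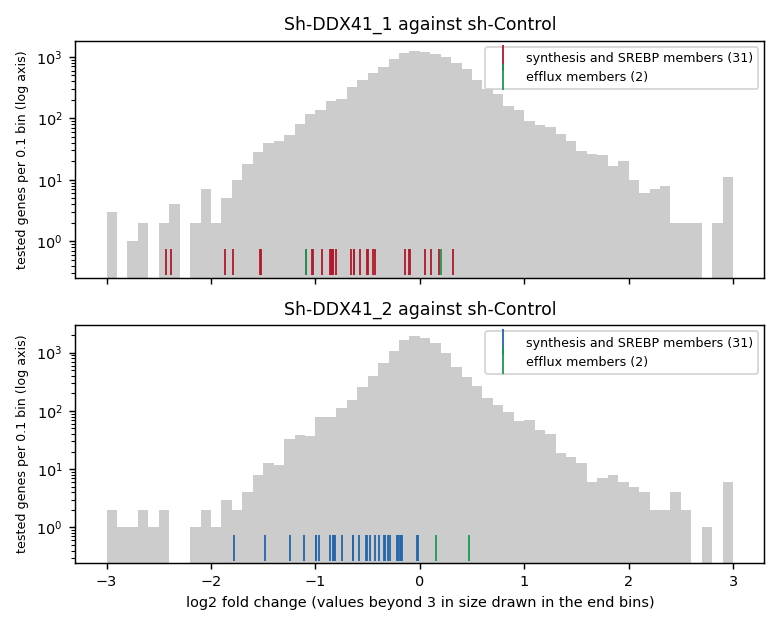
Histograms of the log2 fold change of all 12712 tested genes (gray, number of genes per 0.1 bin on a log axis) for each hairpin against sh-Control. Ticks mark the 31 synthesis and SREBP genes (red or blue) and the 2 tested genes of the efflux group (green). The ticks lie mostly to the left of 0, with medians over all 33 of -0.81 (top) and -0.50 (bottom).

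Of the 8 enzymes that build isoprenoids from acetyl units, 5 were called lower under Sh-DDX41_1 and 6 under Sh-DDX41_2, and none higher. The shares called over all tested genes were 24.1% and 13.4% lower, and 23.7% and 11.6% higher. HMGCS1, which makes HMG-CoA at the entry of the pathway, fell the most. It stood at 272, 199.8 and 233 CPM in sh-Control A, B and D, at 46.2, 47.8 and 41.4 under Sh-DDX41_1 and at 94.1, 106 and 97.45 under Sh-DDX41_2. The 3 groups did not overlap, and the level fell to 19.2% and 42.2% of the control mean. Log2 fold changes were -2.38 ± 0.10 (SE, edgeR adjusted p = 6.66e-10) for Sh-DDX41_1 and -1.24 ± 0.10 (edgeR adjusted p = 5.86e-07) for Sh-DDX41_2.

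FDPS, which makes farnesyl diphosphate, the branch point toward sterols and protein prenylation, stood at 214, 192 and 204 CPM in sh-Control, at 112, 112.5 and 114 under Sh-DDX41_1 and at 146, 153 and 139 under Sh-DDX41_2. The knockdown groups lay below the controls and apart from each other. It fell by 0.85 ± 0.06 (SE, edgeR adjusted p = 8.98e-08) and by 0.48 ± 0.06 (edgeR adjusted p = 8.06e-05) on the log2 scale. ACAT2, the acetoacetyl-CoA thiolase of the first step, fell by 0.83 and 0.43, IDI1, which isomerizes isopentenyl diphosphate, by 0.81 and 0.64, and MVD, the decarboxylase that forms it, by 0.63 and 0.83.

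Not every step moved. MVK, mevalonate kinase, was not called under Sh-DDX41_1 (log2 fold change -0.09, 95% interval -0.31 to 0.13) and fell by 0.51 under Sh-DDX41_2. PMVK, the next kinase, had log2 fold changes of 0.18 (-0.06 to 0.42) and -0.02 (-0.25 to 0.22). GGPS1, which extends farnesyl to geranylgeranyl diphosphate and so leaves the sterol branch, had 0.10 (-0.08 to 0.29) and -0.02 (-0.21 to 0.16). The lower ends of these 4 intervals lie at -0.25 or above, and so exclude a fall as large as that of HMGCS1 or FDPS. In the GENCODE 29 annotation ACAT2 has 3180 exon bases, of which 397, 1106 and 1458 overlap TCP1, SOD2 and SOD2-OT1 on the other strand. Also on the other strand, 703 of 3525 exon bases of HMGCS1 overlap AC114947.2 and 476 of 1647 of FDPS overlap RUSC1-AS1. GGPS1 shares 350 of its 3105 exon bases with TBCE on its own strand. Exons of IDI1, MVK, FDFT1, LSS, CYP51A1, TM7SF2, SREBF2, STARD4, ACLY, FADS1 and FADS2 also overlap other genes, over 448 bases or less per overlap. The strand setting of the counting is not stated, so reads in such stretches are uncertain.

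Of the 11 enzymes between squalene and cholesterol, 8 were called lower and 1 higher under Sh-DDX41_1, and 9 lower and none higher under Sh-DDX41_2. Among all tested genes, 24.1% were lower and 23.7% higher with the first hairpin, and 13.4% and 11.6% with the second. SQLE, the epoxidase that commits squalene to sterols, stood at 293, 235 and 259 CPM in sh-Control, at 147, 143 and 148 under Sh-DDX41_1 and at 142, 149 and 144 under Sh-DDX41_2. Every knockdown library lay below every control, and the 2 knockdown groups overlapped fully. It fell by 0.84 ± 0.07 (SE, edgeR adjusted p = 4.08e-07) and by 0.86 ± 0.07 (edgeR adjusted p = 1.75e-06) on the log2 scale.

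LSS, which cyclizes oxidosqualene to lanosterol, stood at 93.1, 78.0 and 74.9 CPM in sh-Control, at 41.1, 45.3 and 33.7 under Sh-DDX41_1 and at 42.85, 40.5 and 40.2 under Sh-DDX41_2. The controls were separate from the rest and the hairpins overlapped, with log2 fold changes of -1.03 ± 0.10 (SE, edgeR adjusted p = 1.2e-06) and -0.99 ± 0.10 (edgeR adjusted p = 7.39e-06). CYP51A1, which removes the C14 methyl group, fell by 0.58 and 0.74, and MSMO1, the C4-methyl oxidase, by 0.50 and 0.64. DHCR7, the reductase of the last step of one branch, fell by 0.66 and 0.59. EBP, the sterol isomerase, fell by 0.84 and 0.31, although its Sh-DDX41_2 and sh-Control libraries overlapped and the second call was lost without sh-Control A (-0.23) or D (-0.28), or without Sh-DDX41_2 A (-0.32) or D (-0.25).

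Some genes of this stretch were called with 1 hairpin and not with the other. HSD17B7, a 3-ketosteroid reductase, fell by 0.94 under Sh-DDX41_1 and had -0.19 (95% interval -0.46 to 0.09) under Sh-DDX41_2. FDFT1, squalene synthase, fell by 0.43 and had -0.17 (-0.33 to -0.02, edgeR adjusted p = 0.095). NSDHL, which acts with HSD17B7 in the removal of C4 methyl groups, had -0.14 (-0.31 to 0.02) and fell by 0.34, and SC5D, the C5 desaturase, had -0.10 (-0.29 to 0.09) and fell by 0.29. Compared directly, HSD17B7 and FDFT1 were lower in Sh-DDX41_1 than in Sh-DDX41_2 (-0.75 and -0.26, edgeR adjusted p = 0.00041 and 0.00826). The difference between hairpins was not called for SC5D (0.18, edgeR adjusted p = 0.104) or for NSDHL (0.20, edgeR adjusted p = 0.0506), which was called under 6 of the alternatives. The SC5D call under Sh-DDX41_2 was lost without sh-Control A (-0.25) or D (-0.26), without Sh-DDX41_2 A (-0.24) or D (-0.30), or with upper quartile factors (-0.25).

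TM7SF2, a C14 sterol reductase, was the only gene of the list called higher under Sh-DDX41_1. It stood at 10.7, 9.35 and 9.85 CPM in sh-Control, at 12.7, 12.3 and 12.3 under Sh-DDX41_1 and at 7.35, 7.69 and 7.76 under Sh-DDX41_2. The groups did not overlap, with sh-Control in the middle. Its log2 fold changes were 0.32 ± 0.11 (SE, edgeR adjusted p = 0.0211) and -0.39 ± 0.11 (edgeR adjusted p = 0.0175). The first call was lost without sh-Control B (0.28) or D (0.31) or Sh-DDX41_1 A (0.31), and the second without sh-Control A (-0.34) or Sh-DDX41_2 A (-0.37).

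**Figure D3:**
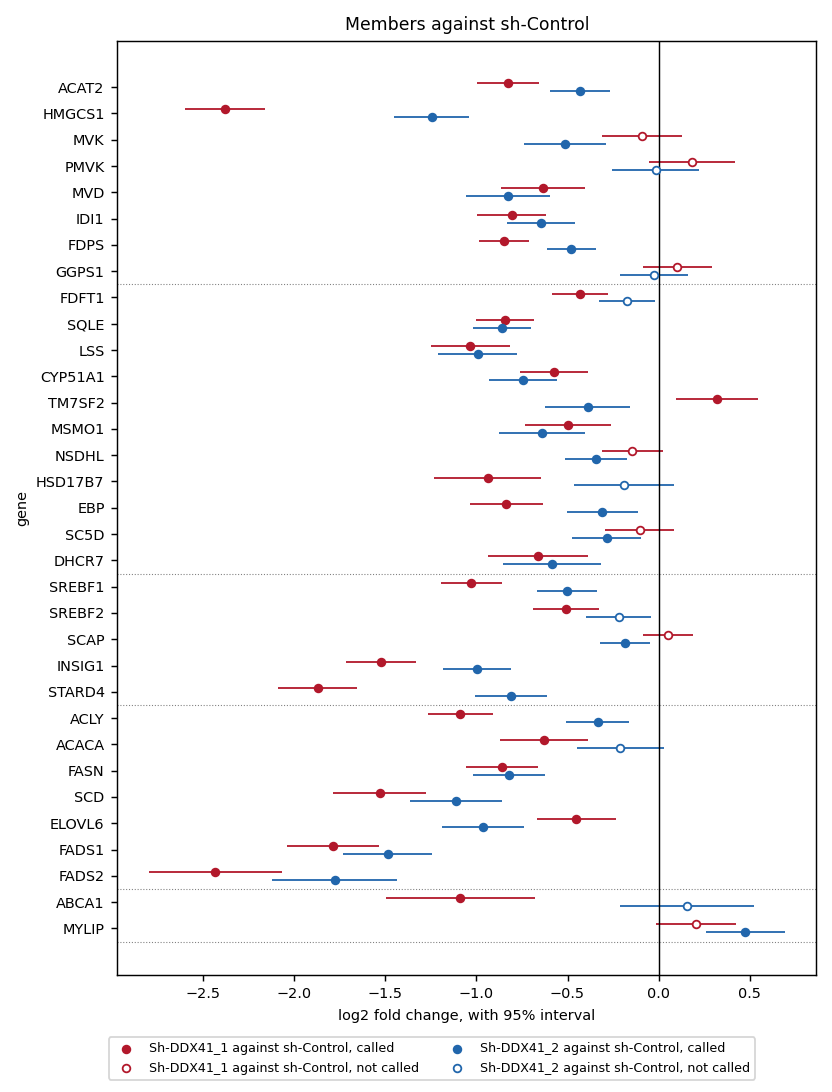
Log2 fold change (points) with its 95% interval (lines) for the 33 tested genes against sh-Control, red for Sh-DDX41_1 and blue for Sh-DDX41_2; filled points were called at an adjusted p under 0.05, and dotted lines separate the roles. The genes called lower lie left of 0, 25 with each hairpin and not all the same genes. HMGCS1 and FADS2 lie farthest left, at -2.38 and -2.43 with Sh-DDX41_1, while TM7SF2 lies on opposite sides.

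Among the regulators, the messengers of both SREBPs were lower under Sh-DDX41_1. SREBF1 stood at 180.5, 171 and 158 CPM in sh-Control, at 87.2, 88.6 and 74.1 under Sh-DDX41_1 and at 122, 114 and 123 under Sh-DDX41_2. No groups overlapped, and it fell by 1.03 ± 0.08 (SE, edgeR adjusted p = 1.04e-07) and by 0.50 ± 0.08 (edgeR adjusted p = 0.000284). SREBF2 stood at 361, 315 and 287 CPM in sh-Control, at 246, 228 and 203 under Sh-DDX41_1 and at 281, 271 and 275 under Sh-DDX41_2. The groups again did not overlap, but the gap between the lowest control and the highest Sh-DDX41_2 library was small. It fell by 0.51 ± 0.08 (SE, edgeR adjusted p = 0.000182) under Sh-DDX41_1. Its value under Sh-DDX41_2 was -0.22 ± 0.08 (edgeR adjusted p = 0.0682), and it was called with the replicate letter as a block (-0.21, edgeR adjusted p = 0.0235), in a fit of only the 6 libraries compared, with no filter on low counts, and without sh-Control D (-0.30) or Sh-DDX41_1 D (-0.21).

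SCAP, the escort of both SREBPs, stood at 83.6, 80.7 and 85.7 CPM in sh-Control, at 86.7, 88.2 and 84.3 under Sh-DDX41_1 and at 78.2, 71.5 and 70.3 under Sh-DDX41_2. Sh-DDX41_1 overlapped the controls (0.05, 95% interval -0.09 to 0.19), and Sh-DDX41_2 lay below them by -0.18 ± 0.06 (SE, edgeR adjusted p = 0.049). That last call was lost, at -0.16 to -0.20, when any sh-Control library, Sh-DDX41_1 A or B, or Sh-DDX41_2 B or D was left out, and also with DESeq2 size factors or test, upper quartile factors (-0.15), other filters or a block on the 6 libraries compared.

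INSIG1 and STARD4, known targets of SREBPs, were among the largest falls. INSIG1, which retains SCAP in the endoplasmic reticulum, stood at 329.9, 243 and 284 CPM in sh-Control, at 98.3, 98.6 and 102 under Sh-DDX41_1 and at 147, 139 and 144 under Sh-DDX41_2. It fell by 1.52 ± 0.09 (SE, edgeR adjusted p = 8.7e-09) and by 0.99 ± 0.09 (edgeR adjusted p = 1.92e-06), to 34.8% and 50.2% of the control level. The spread of the controls was far wider than that of either knockdown group, and no groups overlapped.

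STARD4, a soluble carrier that moves cholesterol between membranes, stood at 39.0, 38.5 and 40.3 CPM in sh-Control, at 12.1, 10.8 and 9.28 under Sh-DDX41_1 and at 21.8, 24.4 and 21.1 under Sh-DDX41_2. Controls were tight, and the groups were separate. It fell by 1.87 ± 0.10 (SE, edgeR adjusted p = 4.43e-09) and by 0.81 ± 0.09 (edgeR adjusted p = 2.45e-05), to 27.3% and 57.0% of the control level.

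**Figure D4:**
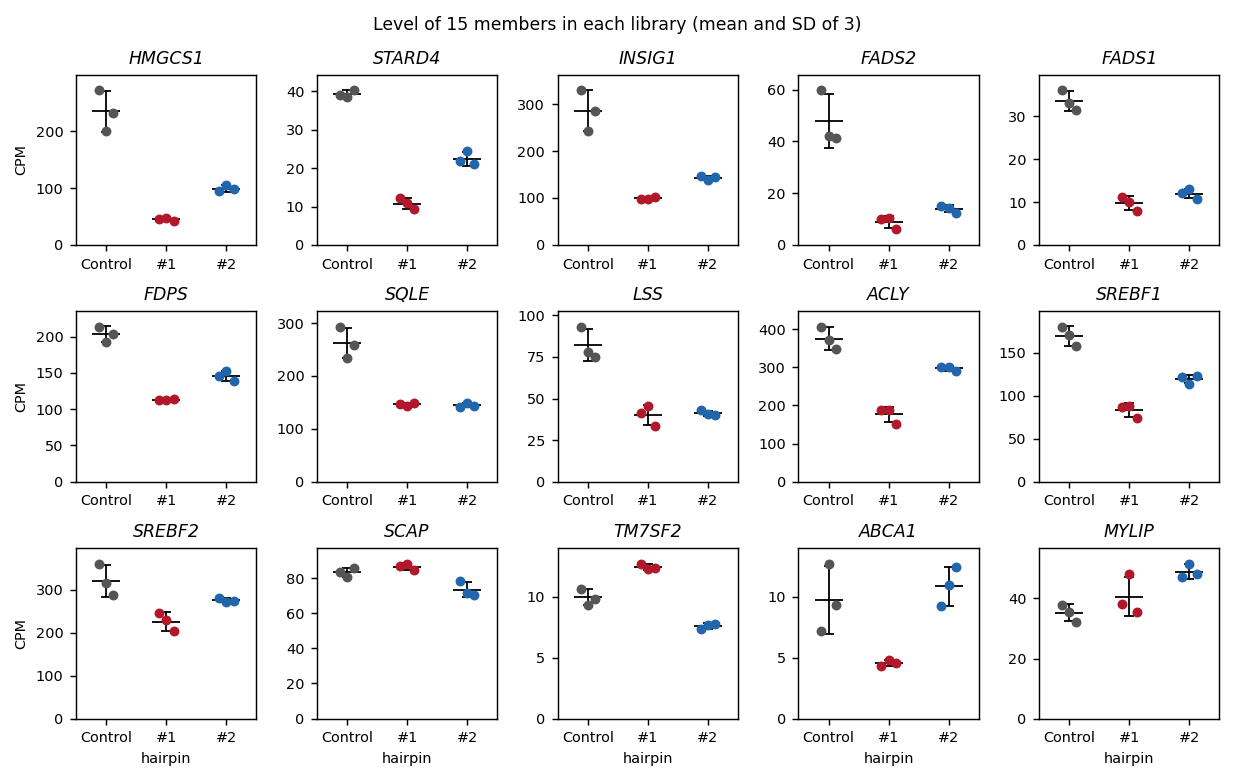
Level in CPM (vertical axes, from 0) of 15 genes in each library (points) under sh-Control, Sh-DDX41_1 (#1) and Sh-DDX41_2 (#2), with the mean and SD of 3 libraries in black. HMGCS1 falls from 234.9 to 45.2 and 99.1 CPM, SQLE and LSS sit at like levels with both hairpins, TM7SF2 is highest with #1 and lowest with #2, and ABCA1 is lowest with #1.

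All 7 fatty acid genes were called lower under Sh-DDX41_1 and 6 of 7 under Sh-DDX41_2, against 24.1% and 13.4% of all tested genes. The desaturases fell the most. FADS2, which introduces the delta-6 double bond into polyunsaturated fatty acids, stood at 59.8, 42.1 and 41.5 CPM in sh-Control, at 10.01, 10.2 and 6.31 under Sh-DDX41_1 and at 15.02, 14.3 and 12.4 under Sh-DDX41_2. All groups were separate, with log2 fold changes of -2.43 ± 0.17 (SE, edgeR adjusted p = 4.27e-08) and -1.78 ± 0.16 (edgeR adjusted p = 2.55e-06), to 18.5% and 29.1% of the control level.

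FADS1, the delta-5 desaturase of the same route, stood at 36.1, 33.1 and 31.5 CPM in sh-Control, at 11.1, 10.1 and 8.01 under Sh-DDX41_1 and at 12.05, 13.0 and 10.8 under Sh-DDX41_2. The hairpin groups overlapped each other and not the controls, and it fell by 1.79 ± 0.12 (SE, edgeR adjusted p = 2.63e-08) and by 1.49 ± 0.11 (edgeR adjusted p = 5.76e-07). FADS1 (chr11:61799627-61817003, minus strand) and FADS2 (chr11:61816203-61867354, plus strand) start head to head. They share 801 bases of span in RefSeq and 142 exon bases in GENCODE 29. They are therefore neighbors and not fully separate measurements.

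SCD, the stearoyl-CoA desaturase that makes monounsaturated fatty acids, fell by 1.53 and 1.11 on the log2 scale, to 34.6% and 46.2% of the control level. ACLY, which turns citrate into cytosolic acetyl-CoA, stood at 406, 372 and 348 CPM in sh-Control, at 188, 188.4 and 152.5 under Sh-DDX41_1 and at 301, 302 and 289 under Sh-DDX41_2. The groups were separate, with Sh-DDX41_2 nearer the controls, and it fell by 1.09 ± 0.08 (SE, edgeR adjusted p = 1.05e-07) and by 0.34 ± 0.08 (edgeR adjusted p = 0.00813). FASN, the multi-enzyme synthase of palmitate, fell by 0.86 and 0.82. ELOVL6, which elongates palmitate, fell by 0.45 and 0.96. ACACA, the carboxylase that makes malonyl-CoA, fell by 0.63 under Sh-DDX41_1 and had -0.21 (95% interval -0.45 to 0.03) under Sh-DDX41_2.

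Of the 2 tested genes of the efflux group, the transporter ABCA1 was called lower under Sh-DDX41_1, and MYLIP, not itself a transporter, higher under Sh-DDX41_2. Over all tested genes, 24.1% were called lower with the first hairpin and 11.6% higher with the second. ABCA1, the transporter that loads cholesterol onto apolipoproteins, stood at 7.22, 12.7 and 9.32 CPM in sh-Control, at 4.34, 4.85 and 4.55 under Sh-DDX41_1 and at 9.24, 10.96 and 12.4 under Sh-DDX41_2. Sh-DDX41_1 lay below both other groups, which overlapped. It fell by 1.09 ± 0.19 (SE, edgeR adjusted p = 0.000295) under Sh-DDX41_1, and the value for Sh-DDX41_2 was 0.16 ± 0.17 (edgeR adjusted p = 0.549), which was -0.02 without sh-Control A.

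MYLIP, an LXR-induced ubiquitin ligase that sends lipoprotein receptors to degradation, stood at 38.0, 35.4 and 32.3 CPM in sh-Control, at 38.3, 48.1 and 35.5 under Sh-DDX41_1 and at 47.0, 51.6 and 48.2 under Sh-DDX41_2. Sh-DDX41_2 lay above all controls, and Sh-DDX41_1 overlapped the controls through D and Sh-DDX41_2 through B. It rose by 0.48 ± 0.10 (SE, edgeR adjusted p = 0.00338) under Sh-DDX41_2. Under Sh-DDX41_1 the value was 0.21 ± 0.10 (edgeR adjusted p = 0.11), called without Sh-DDX41_1 D (0.30, edgeR adjusted p = 0.0125) or with upper quartile scaling (0.28, edgeR adjusted p = 0.0322). ABCG1, a second efflux transporter, had 0 counts in all 6 sh-Control and Sh-DDX41_1 libraries, where 3 counts would be 0.158 to 0.182 CPM, and 1, 3 and 2 counts in Sh-DDX41_2 A, B and D. At this depth no difference was detectable.

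The hairpins were then compared with each other, with the controls entering only through the shared scaling and spread. Of 33 genes, 16 were called lower in Sh-DDX41_1 than in Sh-DDX41_2 against 24.2% of tested genes, and 4 higher against 24.6%. The median difference was -0.26 on the log2 scale, with 0.01 over all tested genes. A lower level in Sh-DDX41_1 was seen for ABCA1 (-1.24 ± 0.19, SE, edgeR adjusted p = 7.87e-05), HMGCS1 (-1.13 ± 0.10, edgeR adjusted p = 4.5e-07), STARD4 (-1.06 ± 0.10, edgeR adjusted p = 1.07e-06), ACLY (-0.75 ± 0.08, edgeR adjusted p = 3.69e-06) and SREBF1 (-0.52 ± 0.08, edgeR adjusted p = 6.65e-05). INSIG1 was lower by -0.53, FADS2 by -0.65, HSD17B7 by -0.75 and FDPS by -0.37. Each degree of knockdown came from a single hairpin, so its strength cannot be told apart from other differences between the hairpins.

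The 4 genes higher in Sh-DDX41_1 were TM7SF2 (0.71 ± 0.11, SE, edgeR adjusted p = 8e-05), ELOVL6 (0.51), MVK (0.42) and SCAP (0.24). For SQLE, LSS and FASN the differences were 0.01 (95% interval -0.15 to 0.17), -0.04 (-0.26 to 0.18) and -0.04 (-0.23 to 0.16), so a difference in either direction larger than these bounds lies outside the intervals. The sign of these 3 small values changed with 1 library or scaling. Sh-DDX41_1 D set part of other differences: without it ACACA went from -0.42 to -0.28, SCD from -0.42 to -0.26 and MYLIP from -0.27 to -0.18, the last no longer called. The MYLIP call was also lost, at -0.23 to -0.30, without sh-Control B, Sh-DDX41_1 A or any Sh-DDX41_2 library, or with upper quartile or library size scaling, and its value was -0.41 without Sh-DDX41_1 B.

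**Figure D5:**
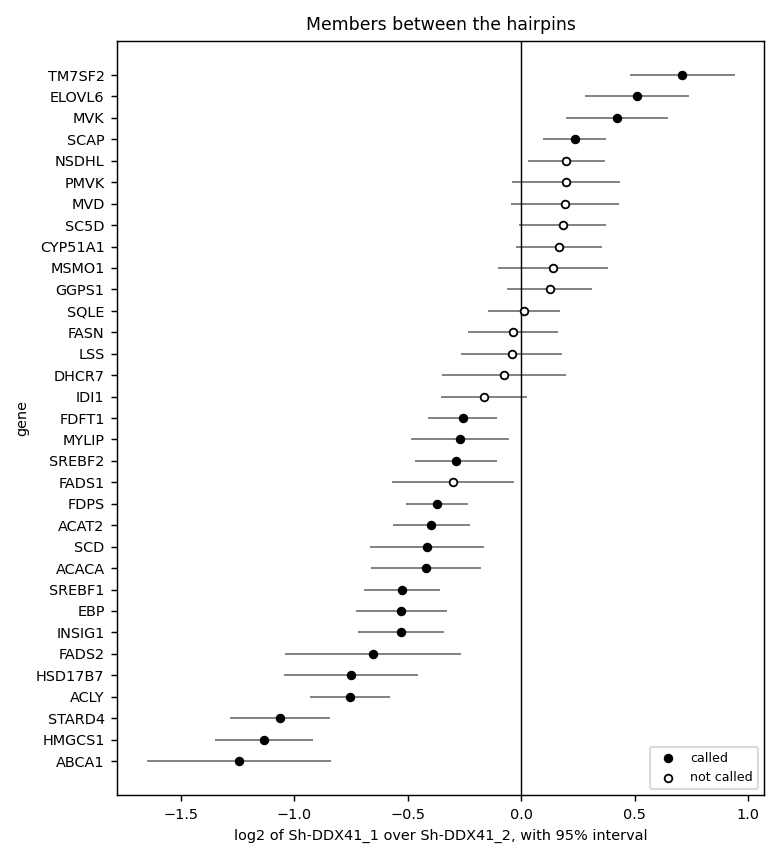
Log2 of the level in Sh-DDX41_1 over that in Sh-DDX41_2 (points) with 95% intervals (lines) for the 33 tested genes, ordered by value; filled points were called at an adjusted p under 0.05. ABCA1, HMGCS1 and STARD4 lie at -1.24, -1.13 and -1.06, SQLE, FASN and LSS lie near 0, and TM7SF2 lies highest at 0.71.

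The order of the libraries within each group was also read. Among the 31 synthesis and SREBP genes, sh-Control A was the highest control for 23 and the lowest for 0, while over all 12712 tested genes it was the highest for 32.6% and the lowest for 37.1%. Control B was the lowest for all 8 isoprenoid enzymes and 9 of 11 sterol enzymes, and control D for all 7 fatty acid genes. In Sh-DDX41_1 each library was the highest as often as the lowest, A for 5 genes each way, B for 12 and D for 14. Library D was the lowest for all 7 fatty acid genes and for 4 of 5 regulators, yet the highest for 6 of 8 isoprenoid enzymes and 7 of 11 sterol enzymes; over all tested genes it was the lowest for 40.2% and the highest for 40.8%. In Sh-DDX41_2, B was the highest for 19 of the 31 genes and D the lowest for 18. These orders are descriptions of single libraries, and what set them was not tested. The count of genes called lower under Sh-DDX41_1 was 25 without sh-Control A as well.

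A further 41 genes of the same pathways, all of which passed the filter, were read from the same fit. Under Sh-DDX41_1, 15 were called lower (24.1% of all tested genes) and 4 higher (23.7%), with a median log2 fold change of -0.11. Under Sh-DDX41_2, 12 were lower (13.4%) and 5 higher (11.6%), with -0.07. Between the hairpins 13 were lower (24.2%) and 8 higher (24.6%) in Sh-DDX41_1, with -0.04, and these 2 counts are near the background. Of 8 genes for SREBP processing and for degradation of its partners, 3 fell and 2 rose under Sh-DDX41_1 and 1 fell and 2 rose under Sh-DDX41_2. These counts lie within about 1 gene of the same shares and are no result about the list. ERLIN1 and ERLIN2, partner proteins of an endoplasmic reticulum degradation complex, went opposite ways. ERLIN1 stood at 170, 186 and 202 CPM in sh-Control, at 299.6, 309 and 300.5 under Sh-DDX41_1 and at 132, 137 and 142 under Sh-DDX41_2. ERLIN2 stood at 166, 177.5 and 179.8, at 109.5, 114 and 108, and at 243, 251 and 239 in the same order. No groups overlapped for either gene. ERLIN1 rose by 0.70 (edgeR adjusted p = 1.04e-06) and fell by 0.44 (edgeR adjusted p = 0.000305), and ERLIN2 fell by 0.66 (edgeR adjusted p = 6.38e-07) and rose by 0.49 (edgeR adjusted p = 4.28e-05).

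Of 9 further sterol and isoprenoid genes, 3 fell and 1 rose under Sh-DDX41_1, against 24.1% and 23.7% of all tested genes, and 3 fell under Sh-DDX41_2, against 13.4%. ERG28, listed as C14orf1 and known as a scaffold for sterol demethylation enzymes, stood at 41.5, 37.0 and 41.9 CPM in sh-Control, at 20.5, 16.6 and 18.2 under Sh-DDX41_1 and at 34.3, 39.7 and 37.8 under Sh-DDX41_2. It was low with 1 hairpin and overlapped the controls with the other, at -1.12 ± 0.09 (SE, edgeR adjusted p = 2.36e-07) and -0.11 ± 0.09 (edgeR adjusted p = 0.406), and the hairpins differed by -1.01 (edgeR adjusted p = 6.64e-07). PDSS1, which starts the ubiquinone side chain, fell by 0.47 under Sh-DDX41_2.

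Of 9 uptake, trafficking and esterification genes, 3 were lower and 1 higher under Sh-DDX41_1, against 24.1% and 23.7% of all tested genes. Under Sh-DDX41_2, 2 were lower and 2 higher, against 13.4% and 11.6%, so these counts too are near the background. SOAT1, which esterifies cholesterol for storage, fell by 0.55 under Sh-DDX41_1 and differed by -0.73 between hairpins, and SCARB1, a lipoprotein receptor, fell by 0.43 under Sh-DDX41_2. Of 10 further fatty acid and lipid genes, 5 fell under Sh-DDX41_1, against 24.1% of all tested genes. With Sh-DDX41_2, 6 fell and 1 rose, against 13.4% and 11.6%. ACSL3, an acyl-CoA synthetase, fell by 0.87 and 0.34, and its relative ACSL1 had -0.09 (95% interval -0.25 to 0.07) and rose by 0.45. Of 5 genes for LXRs and their targets, 1 fell under Sh-DDX41_1 (24.1% of all tested genes) and none was called under Sh-DDX41_2 (13.4% lower, 11.6% higher), near the background. The former was LPCAT3, a phospholipid acyltransferase (-0.28, edgeR adjusted p = 0.0146), and the call was lost without sh-Control A (-0.22) or Sh-DDX41_1 D (-0.18), or with upper quartile factors (-0.21). SMPDL3A, a sphingomyelinase-like enzyme, had 0.52 under Sh-DDX41_2 (edgeR adjusted p = 0.0534) and was called under 10 of the alternatives. NR1H3, which encodes an LXR, differed by 0.83 between hairpins (edgeR adjusted p = 0.0262) but was no longer called without Sh-DDX41_1 D (0.50) or Sh-DDX41_2 A (0.80) or D (0.70), or with a block on the 6 libraries compared (0.79).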

How the data were processed

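The authors deposited 1 table of whole-number counts per gene, not normalized, for 9 libraries. Per the labels, a stranded mRNA kit was used, while the methods name a related kit without strand. The submitters' processing notes name FastQC 0.11.7, HISAT2 2.0.5, featureCounts 1.5.2 and the builds hg38 and mm10. The annotation and strand setting are not given in the sources used here. Members and lists were chosen with earlier results of these data known.

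Counts were analyzed in R 4.3.3 with edgeR 4.0.16 (filterByExpr at a minimum count of 10, TMM scaling, 1 coefficient per group, two-sided quasi-likelihood tests, Benjamini-Hochberg adjustment over 12712 genes, calls under 0.05). Standard errors are the log2 fold change over the square root of F. An exact permutation test of 3 against 3 libraries cannot give a p under 0.1. The scripts were tested on simulated data.

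Values in every library are given for the 6 called members with the smallest adjusted p in each of 3 contrasts and for SREBF1, SREBF2, SCAP, INSIG1, ABCA1, ABCG1 and MYLIP. Other pathway genes are named if called at an absolute log2 fold change of at least 1, or as the smallest adjusted p of their list. The promoters printed, ACSL1's pairing with ACSL3 and the library values of ERLIN1, ERLIN2 and ERG28 were chosen after their values were seen. Same-letter deviations from group means correlated at 0.135, 0.238 and 0.381 for sh-Control with Sh-DDX41_1, and at -0.10 to 0.03 for pairs with Sh-DDX41_2. Different-letter pairs of sh-Control with Sh-DDX41_1 ran from -0.291 to 0.151. The highest of these, sh-Control B with Sh-DDX41_1 A, lay above the same-letter A pair. Deviations from a shared group mean depend on each other, so these correlations cannot settle whether the letters pair the groups. Alternatives were other scalings and filters, DESeq2 1.42.0, limma voom (limma 3.58.1), only the 6 libraries compared, the letter as an additive block, leaving out single libraries, and an adjusted p under 0.01. Gene positions and promoters are from RefSeq (GRCh38.p14), and exon overlaps from GENCODE 29 on hg38.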

Additional observations from a re-analysis of the deposited data

Results flagged for a closer look

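The 2 hairpins gave called changes of opposite sign against sh-Control for 4 of the genes described, and the difference between the hairpins was itself called for each. How many of all tested genes did the same was not counted, so this number is no result about the list. On the log2 scale, Sh-DDX41_1 minus Sh-DDX41_2 was 0.71 for TM7SF2, -0.70 for SPRING1, 1.15 for ERLIN1 and -1.15 for ERLIN2. For SPRING1, listed as C12orf49 and needed for SREBP processing, the separate values were -0.46 and 0.24. It stood at 35.1, 33.5 and 34.0 CPM in sh-Control, at 25.2, 25.6 and 23.7 under Sh-DDX41_1 and at 39.7, 43.0 and 38.1 under Sh-DDX41_2, with no overlap. Its rise under Sh-DDX41_2 was lost with library size scaling only (0.22), without sh-Control B (0.23) or D (0.23) or without Sh-DDX41_2 A (0.24) or B (0.18).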

How the results depend on the processing

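Of 2641 values of 139 gene fold changes recomputed under the alternatives, 2496 kept their direction and side of the threshold, 115 became weaker, 24 stronger and 6 reversed. The count of members called lower stayed at 25 for Sh-DDX41_1 under every alternative, and ran from 21 to 28 for Sh-DDX41_2 and from 14 to 17 between hairpins. Members higher under Sh-DDX41_1 went from 1 to 2 with upper quartile factors and to 0 at an adjusted p under 0.01, and ranged from 0 to 2 with libraries left out (0 without sh-Control B or D, 2 without Sh-DDX41_1 D). Other pathway genes higher under Sh-DDX41_2 went from 5 to 3 with library size only or at an adjusted p under 0.01, and ranged from 3 to 7 with libraries left out (3 without sh-Control B or Sh-DDX41_2 A or B, 7 without Sh-DDX41_1 D). Those higher in Sh-DDX41_1 than in Sh-DDX41_2 went from 8 to 4 at an adjusted p under 0.01 and to 4 at the lowest with libraries left out (Sh-DDX41_2 A or D). Small values changed sign: with libraries left out, ABCA1 under Sh-DDX41_2 ranged from -0.0204 (without sh-Control A) to 0.396, and between hairpins SQLE from -0.0023 (without Sh-DDX41_2 A) to 0.0327, LSS from -0.141 to 0.0703 and FASN from -0.108 to 0.0472 (both highest without Sh-DDX41_1 D), with LSS at 0.00019 and FASN at 0.0054 under upper quartile factors. The cause was not tested. Upper quartile factors moved the median of all genes under Sh-DDX41_1 from 0.01 to 0.09.

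With the replicate block, 25 members were lower under Sh-DDX41_1, 26 under Sh-DDX41_2 and 17 between hairpins; SREBF2 under Sh-DDX41_2 was called (-0.21). A replicate block on the 6 libraries compared, chosen after seeing the data, lost SCAP under Sh-DDX41_2 (-0.18) and took the other pathway genes higher between hairpins from 8 to 4. The labels do not say what the letters stand for, so calls lost with a block are not read as weaker effects or as stable ones. Depth gave at least 72 counts per tested member and library, and ABCG1 could not be tested.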
